A study of Mus musculus with 12 samples.

Results

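The unfolded protein response and the integrated stress response were followed through 10 genes: Ern1, Eif2ak3, Atf6, Xbp1, Atf4, Ddit3, Trib3, Asns, Herpud1 and Sdf2l1. They were chosen by name from an RNA-seq table of mouse microglia that holds 21125 genes, and the rule that names them uses no measured value. All 10 were in the table, and all 10 passed the filter on low values that 10634 genes passed. None of the 10 was called for the toxin MPTP or for loss of Ppargc1a in the tests below, which rest on 1 to 3 profiles a group. Those tests called only 0.0376% to 0.292% of all tested genes, so a count of 0 among 10 does not set these genes apart. For Atf4, Sdf2l1 and Trib3, and narrowly for Atf6, the 2 WT PBS profiles lay farther apart than any groups compared.

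Misfolded protein in the endoplasmic reticulum (ER) is detected by 3 membrane proteins: the kinase and nuclease IRE1alpha, encoded by Ern1, the kinase PERK, encoded by Eif2ak3, and the transcription factor ATF6. IRE1alpha removes a short intron from the Xbp1 mRNA so that an active transcription factor is made, and ATF6 is released by proteases and enters the nucleus. PERK phosphorylates the translation factor eIF2alpha, as do the kinases that sense amino acid shortage, heme shortage and double-stranded RNA, and this favours translation of ATF4 over that of most proteins. ATF4 and its partner CHOP, encoded by Ddit3, then act on genes of amino acid supply and of cell death. In macrophages and microglia these pathways are also tied to the production of cytokines.

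The samples are described as microglia, the resident macrophages of the brain, sorted by flow cytometry from mouse midbrain. The labels give KO animals the genotype Ppargc1a FF CreER and WT animals Ppargc1a FF, so both carried the conditional allele, and only KO animals carried the tamoxifen-inducible recombinase, whose promoter the labels do not name. All samples were taken 6 weeks after tamoxifen. MPTP, a toxin of dopaminergic neurons, or PBS was given to both genotypes, which makes 4 groups, each with samples numbered 1 to 3. The sources used here give neither the ages of the animals nor the dose of MPTP. They also do not say that samples are separate animals, so the p-values below cover the spread among profiles only, and that spread may be technical.

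Only 6 of the 12 deposited columns are separate profiles: KO MPTP 2, WT MPTP 1, KO PBS 1, KO PBS 2, WT PBS 1 and WT PBS 2. The other 6 follow from them by fixed arithmetic in all but at most 46 of 67354 rows, and no row of the 10 genes departs from it. KO MPTP 1 is a fixed multiple of KO PBS 2, so that 1 profile stands under both treatments and its treatment is unknown. Values are taken as FPKM, a level per length of transcript and per mapped fragment, and the 6 profiles sum to between 388861 and 425554 FPKM. The read depth is unknown. Ppargc1a was 0.42 FPKM in KO MPTP 2 and 2.72 in WT MPTP 1, against 0.33 and 0.12 in KO PBS 1 and 2 and 5.70 and 6.21 in WT PBS 1 and 2, but some of its deposited values depart from the arithmetic. All 10 macrophage markers were above 1 FPKM, with Cd68 highest at 479 and C1qa lowest at 1.49, while 5 of 8 markers of homeostatic microglia, among them P2ry12, Cx3cr1 and Sall1, were under 1 FPKM. Summed over the 10 macrophage markers, KO profiles had 1505 to 1624.57 FPKM and WT profiles 1625.93 to 1677, a narrow gap. Among these markers Itgam was 66.81 to 75.85 FPKM in KO and 86.48 to 94.97 in WT. Without Itgam, some of whose deposited values depart from the arithmetic, the sums of the genotypes overlapped. The part of these marker levels in the differences between genotypes was not tested. Neuronal, lymphocyte and astrocyte marker lists had medians of 0, 0.01 and 0.09 FPKM, though Aldh1l1 of the astrocyte list was at 2.91. Lists of granulocytes, dopaminergic neurons and oligodendrocytes had medians of 0.26, 0.45 and 0.95 FPKM. Their highest genes were S100a8 at 4.52, Slc18a2 at 0.84 and Cnp at 7.57. Of the vessel markers Flt1 was at 86.9 FPKM while Cdh5 was listed at 0. These lists cover only markers present in the data. Absent were Rbfox3, Snap25 and Map2 of neurons, Aqp4 of astrocytes, Ncr1 of lymphocytes and S100a9 of granulocytes. Th and Slc6a3 of dopaminergic neurons, Mog and Mobp of oligodendrocytes and Cldn5 of vessels were also absent.

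Sequences are shown for the sites through which these genes are known to be switched on. The promoter windows of RefSeq, 250 bases before to 50 after a start site on GRCm38.p6, held 1 window for 9 of the 10 genes, Atf6 being the exception, and 1 for Hspa5, which encodes the main ER chaperone BiP. They were searched on both strands for the ER stress elements ERSE (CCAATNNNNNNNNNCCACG) and ERSE-II (ATTGGNCCACG), the core of the XBP1 and ATF6 site UPRE (TGACGTGG) and the core of the C/EBP-ATF composite site CARE (TGATGNAA) that ATF4 uses. ERSE, ERSE-II and the reverse complement of the UPRE core all contain CCACG. Among all 32851 windows these were found in 0.119%, 0.0365%, 0.676% and 3.97%. The stretches below start and end 10 bases beyond the outermost match that lies upstream of the start, written 5′ to 3′ on the strand of the gene with the matches in capitals.
Herpud1 (chr8:94386307-94386397, plus strand): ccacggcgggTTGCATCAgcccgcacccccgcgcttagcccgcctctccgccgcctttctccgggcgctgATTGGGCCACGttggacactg
Asns (chr6:7693215-7693242, minus strand): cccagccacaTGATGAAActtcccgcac
Hspa5 (chr2:34772015-34772053, plus strand): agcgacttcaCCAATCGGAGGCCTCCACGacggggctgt
Herpud1 thus held a CARE core, on the minus strand, and an ERSE-II. Asns held 1 CARE core and Hspa5 1 ERSE, while the only match of Trib3, a CARE core, lay after its start site. None of the 4 motifs was found in the windows of the other 6 genes with a window.

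For Xbp1 the sequence of interest is in the mRNA. In an Xbp1 transcript of GENCODE with 2129 bases and 5 exons, a search for CNGCNG sites whose cuts after CNG lie 26 bases apart found 2 stretches in the coding sequence. The one in exon 4 is the intron that IRE1alpha is known to remove, shown in capitals with 12 bases on either side.
Xbp1 (GRCm38, chr11:5524279-5524304, plus strand): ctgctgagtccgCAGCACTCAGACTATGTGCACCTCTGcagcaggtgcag
It makes up 1.22% of that transcript, and the table gives no value by which the form with this stretch could be told from the form without it. Levels of Xbp1 below therefore cover both forms.

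Among the sensors and Xbp1, levels of Eif2ak3, Atf6 and Xbp1 varied less over the profiles than the median tested gene, and those of Ern1 more. Ern1 was 5.10 FPKM in KO MPTP 2 and 4.39 in WT MPTP 1, against 4.17 and 4.47 in KO PBS 1 and 2 and 4.92 and 4.60 in WT PBS 1 and 2. KO MPTP 2 was the highest profile for Ern1 and KO PBS 1 the lowest. Eif2ak3 was 10.37 FPKM in KO MPTP 2 and 10.36 in WT MPTP 1, against 9.81 and 9.94 in KO PBS 1 and 2 and 10.86 and 10.20 in WT PBS 1 and 2. The 2 profiles labelled KO PBS lay below all others. Atf6 was 17.84 FPKM in KO MPTP 2 and 18.38 in WT MPTP 1, against 17.27 and 17.17 in KO PBS 1 and 2 and 19.08 and 17.81 in WT PBS 1 and 2. The KO and WT profiles of Atf6 overlapped only through KO MPTP 2 and WT PBS 2, which differed by little. Xbp1 was 33.60 FPKM in KO MPTP 2 and 34.57 in WT MPTP 1, against 31.09 and 32.78 in KO PBS 1 and 2 and 32.54 and 34.09 in WT PBS 1 and 2. The coefficient of variation over the 6 profiles was 3.62% for Eif2ak3, 3.78% for Xbp1, 3.99% for Atf6 and 7.50% for Ern1, beside a median of 5.59% over all tested genes.

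The transcription factors of the integrated stress response and their targets varied more. Atf4, which encodes the factor translated when eIF2alpha is phosphorylated, was 70.11 FPKM in KO MPTP 2 and 71.39 in WT MPTP 1, against 57.35 and 74.51 in KO PBS 1 and 2 and 49.66 and 65.88 in WT PBS 1 and 2. KO PBS 2, whose treatment is unknown, was highest, and WT PBS 1 and KO PBS 1 were the lowest profiles. Ddit3, whose product CHOP promotes cell death under lasting stress, was 9.08 FPKM in KO MPTP 2 and 9.47 in WT MPTP 1, against 7.50 and 7.70 in KO PBS 1 and 2 and 8.69 and 8.95 in WT PBS 1 and 2. Here the profiles with 1 label lay close together, those labelled KO PBS lowest. In GENCODE the exons of Ddit3 overlap those of Mars on the opposite strand, and no source used here says that strand was counted, so reads of the 2 genes may not have been told apart.

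Trib3 encodes a pseudokinase that is induced by ATF4 and CHOP and binds the kinase AKT. It was 3.13 FPKM in KO MPTP 2 and 3.10 in WT MPTP 1, against 2.45 and 3.72 in KO PBS 1 and 2 and 5.69 and 2.96 in WT PBS 1 and 2. WT PBS 1 stood above all other profiles, and WT PBS 2 was lower than all but KO PBS 1. Asns, which encodes asparagine synthetase, was 22.31 FPKM in KO MPTP 2 and 22.35 in WT MPTP 1, against 18.31 and 25.99 in KO PBS 1 and 2 and 18.97 and 20.85 in WT PBS 1 and 2. KO PBS 1 was the lowest profile of Asns, and KO PBS 2, of unknown treatment, the highest. The coefficients of variation were 9.24% for Ddit3, 12.9% for Asns, 14.7% for Atf4 and 32.6% for Trib3.

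Herpud1 and Sdf2l1 act in the ER itself. Herpud1, which encodes a membrane component of ER-associated degradation, was 8.29 FPKM in KO MPTP 2 and 9.13 in WT MPTP 1, against 7.10 and 8.20 in KO PBS 1 and 2 and 7.27 and 7.97 in WT PBS 1 and 2. WT MPTP 1 was highest, and KO MPTP 2 lay above KO PBS 1 and both WT PBS profiles. KO PBS 2, which may be of either treatment, was close to KO MPTP 2. Sdf2l1, which encodes a partner of BiP and ER co-chaperones, was 23.20 FPKM in KO MPTP 2 and 23.71 in WT MPTP 1, against 20.67 and 25.13 in KO PBS 1 and 2 and 20.53 and 26.08 in WT PBS 1 and 2. KO MPTP 2 and WT MPTP 1 lay inside the range of the WT PBS profiles. Of the rows summed for Herpud1, 1 of 4 held 77.3% of the level, and what a row stands for is not given in the sources used here. In that row KO MPTP 2 was highest at 7.24 FPKM, and WT MPTP 1 and WT PBS 2 were both at 6.73. Another row, with 5.8% of the level, had 1.67 FPKM in WT MPTP 1 and at most 0.63 elsewhere.

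**Figure D1:**
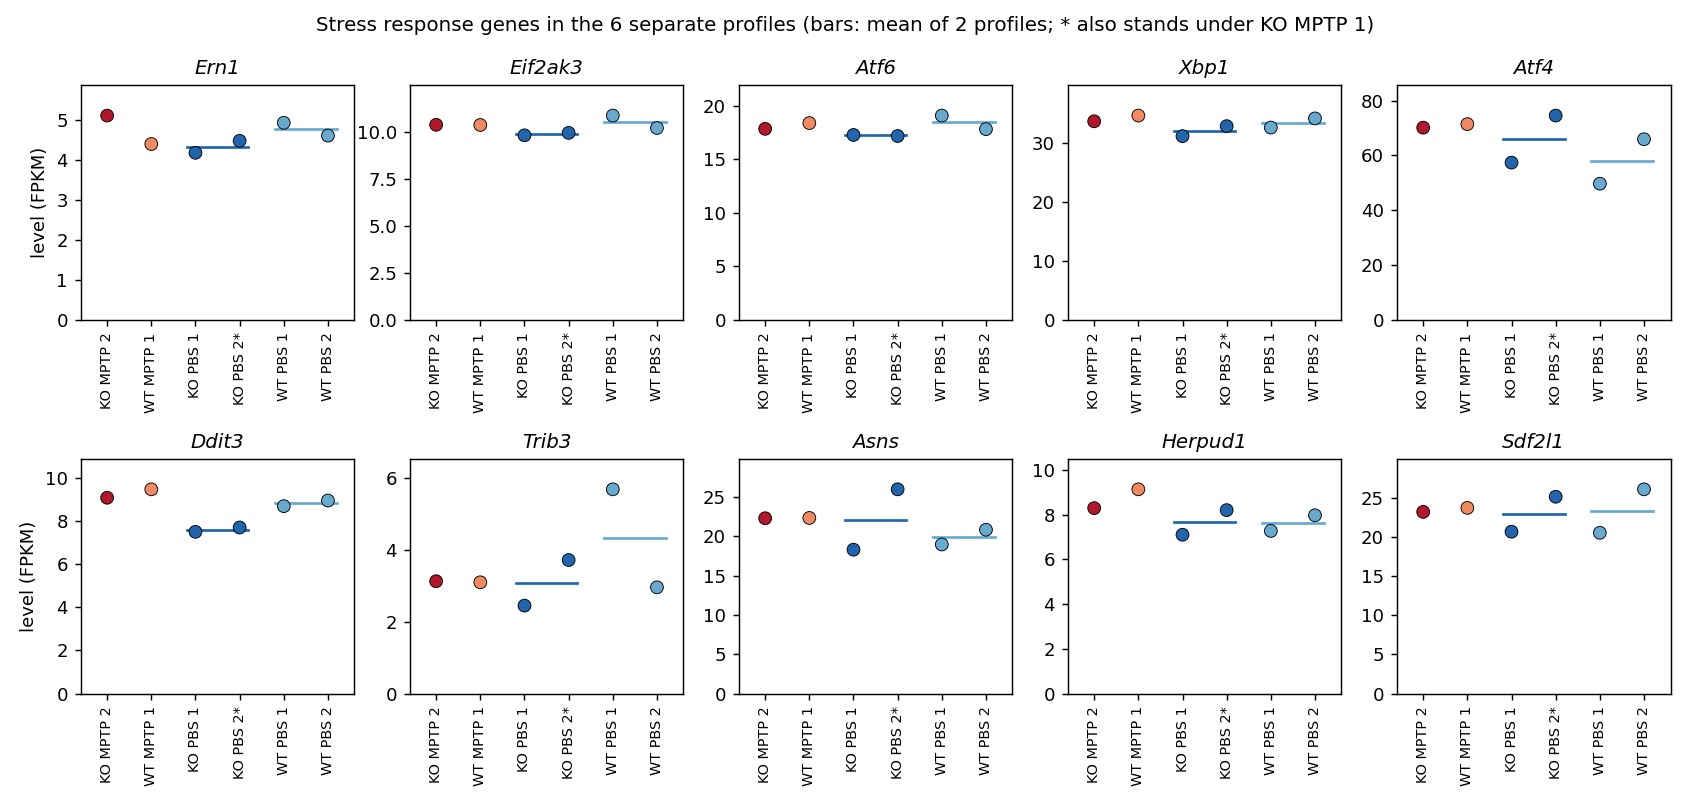
Level of each of the 10 genes in FPKM (vertical axes from 0) in the 6 separate profiles, with bars at the mean of the 2 profiles that carry a PBS label. KO PBS 1 is the lowest profile for 7 of the 10 genes, and some pairs of Atf4, Asns, Sdf2l1 and Trib3 with 1 label are far apart. Of all tested genes, 63.8% were higher in KO PBS 2 than in KO PBS 1.

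In order of mean level over the 6 profiles, Atf4 came first at 64.8 FPKM, followed by Xbp1 at 33.1, Sdf2l1 at 23.2, Asns at 21.5, Atf6 at 17.9, Eif2ak3 at 10.3, Ddit3 at 8.56, Herpud1 at 7.99, Ern1 at 4.61 and Trib3 at 3.51. The ranges over the profiles overlapped between neighbours for Sdf2l1 and Asns, Asns and Atf6, Ddit3 and Herpud1, and Ern1 and Trib3, and not between the others. KO PBS 1 was the lowest profile for Ern1, Eif2ak3, Xbp1, Ddit3, Trib3, Asns and Herpud1. Low values in KO PBS 1 were not particular to these genes: 63.8% of all tested genes were higher in KO PBS 2 than in KO PBS 1, beside 9 of the 10. The share of all tested genes that were lowest in KO PBS 1 was not counted. KO PBS 1 also had the lowest summed level of the 6, 388861 FPKM. The sum of KO PBS 2 was close, at 389882 FPKM, and that profile was lowest for 1 of the 10 genes and highest for 2. The part of the summed levels in the low values was not tested.

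WT MPTP was set against WT PBS to ask what the toxin does in microglia that have Ppargc1a. None of the 10 genes was called by limma at an adjusted p under 0.05, beside 0.254% of all tested genes, and 2 of the 10 had an unadjusted p under 0.05, as did 2.65% of all. These were Atf4, whose log2 fold change was 0.31 with an SE of 0.13 (adjusted p = 1 by limma), and Herpud1, at 0.23 with an SE of 0.10 (adjusted p = 1). The difference of Atf4 was smaller than the 0.40 between WT PBS 2 and WT PBS 1, whereas that of Herpud1 was larger than its 0.12 between the same profiles. That holds for the summed rows of Herpud1. In the row with most of its level, WT MPTP 1 and WT PBS 2 were both at 6.73 FPKM and WT PBS 1 at 4.89. With KO PBS 2 added as KO PBS, Atf4 was at 0.11 without WT PBS 1 and at 0.52 without WT PBS 2. Fold changes ran from −0.33 for Trib3 to 0.31 for Atf4, 6 of the 10 were above 0 and their median was 0.04, the same as over all tested genes. For Atf6 the interval of the difference ran from −0.19 to 0.19 (95%). In a bulk profile, fewer cells of a kind and less RNA per cell cannot be told apart.

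KO MPTP was compared with KO PBS for the same response in deficient microglia, with KO MPTP 2 and KO PBS 1 only, since the profile under both treatments was left out. None of the 10 genes was called (limma), beside 0.292% of all tested genes, and 2 had an unadjusted p under 0.05, as did 9.23% of all. These were Asns, at 0.27 ± 0.10 (SE; limma, adjusted p = 0.458), and Ddit3, at 0.25 ± 0.11 (adjusted p = 0.52). All 10 were above 0 with a median of 0.22, but so were 86.5% of all tested genes, whose median was 0.09, and after each profile was centred on its median 8 of the 10 remained above 0 with a median of 0.12. With the profile of KO PBS 2 counted as KO MPTP the median of the 10 genes was 0.19, and with it counted as KO PBS the median was 0.07. Asns was at 0.39 in the first case and at 0.03 in the other, and Atf4 at 0.34 and 0.10.

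KO PBS against WT PBS asked what the deficiency does in the absence of the toxin. It shares its WT PBS profiles with the MPTP comparison in WT. None of the 10 was called (limma), beside 0.226% of all tested genes, and Trib3 and Ddit3 had an unadjusted p under 0.05, as did 4.42% of all. Trib3 was at −0.58 ± 0.23 (SE; limma, adjusted p = 0.909), less than the 0.76 by which its WT PBS profiles differed. With KO PBS 2 counted as KO PBS it was at −0.35, and without WT PBS 1 as well at 0.03, so its sign turned with both changes together. KO PBS 1, at 2.45 FPKM, lay below WT PBS 2, at 2.96, as well as below WT PBS 1. Ddit3 was at −0.21 ± 0.09 (SE), more than the 0.04 between the WT PBS profiles. In the row that holds 82.7% of the level of Ddit3, those 2 profiles were farther apart, at 7.76 and 7.07 FPKM, with KO PBS 1 at 6.6. In all, 9 of the 10 genes were below 0, with a median of −0.10, beside 22.1% of all genes above 0 and a median of −0.06. Atf4 was at 0.00 with an interval from −0.29 to 0.30 (95%). With KO PBS 2 counted as KO PBS, 3 of the 10 were above 0, and Asns was at 0.13, against −0.11 without that profile.

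KO MPTP and WT MPTP were compared with 1 profile each. None of the 10 was called (limma), beside 0.103% of all tested genes, and none had an unadjusted p under 0.05, beside 3.59% of all. Fold changes ran from −0.12 for Herpud1 to 0.18 ± 0.11 for Ern1 (SE; limma, adjusted p = 1). Eif2ak3, Asns and Trib3 were at 0.00, 0.00 and 0.01. The intervals (95%) ran from −0.23 to 0.23 for Eif2ak3 and from −0.58 to 0.60 for Trib3, so changes of those sizes were not excluded. The interaction, the MPTP difference in KO minus that in WT, called none of the 10 (limma), beside 0.0752% of all tested genes. Ern1 alone had an unadjusted p under 0.05, as did 5.17% of all tested genes, with 0.24 in KO against −0.09 in WT and an interaction of 0.33 ± 0.15 (SE; limma, adjusted p = 0.962).

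Over all 6 profiles, 3 KO against 3 WT, the profile under both treatments could be used, because it is KO under either label. None of the 10 genes was called (limma), beside 0.0376% of all tested genes, and none had an unadjusted p under 0.05, beside 3.49% of all. Ddit3 came nearest, with 8.09 ± 0.86 FPKM in KO and 9.04 ± 0.40 in WT (SD, n = 3 each) and a log2 difference of −0.15 ± 0.07 (SE; limma, adjusted p = 0.997). Its exact permutation test over the 3 and 3 profiles gave a two-sided p of 0.3, where 0.1 is the smallest that such groups allow. Without KO PBS 1, 5 of the 10 were above 0, against 2 with it. Atf6, at 17.4 ± 0.36 FPKM in KO and 18.4 ± 0.64 in WT (SD, n = 3 each), had an exact two-sided p of 0.2, the lowest of the 10. The groups overlapped for all 10 genes. Among all tested genes, 7.23% had every KO profile below every WT profile and 0.828% had every KO profile above. At shares this low, overlap in all of 10 genes does not set them apart.

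**Figure D2:**
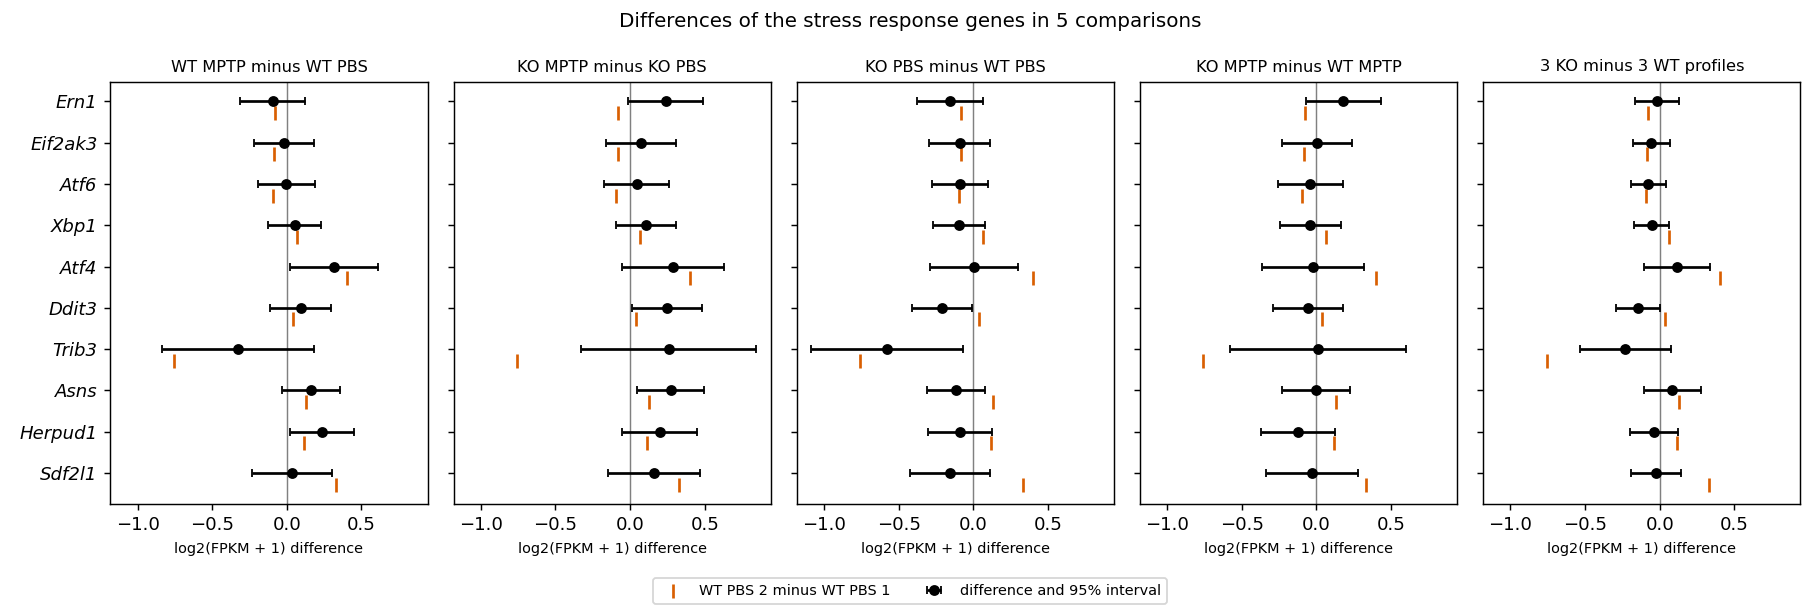
Difference of each gene on the log2(FPKM + 1) scale with its 95% interval (limma) in 5 comparisons, with orange ticks at the difference between the 2 WT PBS profiles. For Atf4, Sdf2l1 and Trib3, and narrowly for Atf6, the tick lies farther from 0 than the points of all 5 panels.

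Set beside the distance between the WT PBS profiles, the 4 comparisons between groups of the 5-profile fit gave a larger difference in none of 4 for Atf4, Atf6, Sdf2l1 and Trib3, in 1 for Eif2ak3, in 2 for Xbp1 and Asns, in 3 for Herpud1 and in 4 for Ern1 and Ddit3. These comparisons share profiles and are not independent of one another. The counts use summed rows. For Herpud1 and Ddit3, the row with most of the level had WT PBS profiles farther apart than the sum. Between the profiles labelled KO PBS, Asns, Trib3 and Atf4 differed by 0.48, 0.45 and 0.37 on the log2 scale, and Atf6 and Eif2ak3 by −0.01 and 0.02 (KO PBS 2 minus KO PBS 1).

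Likeness between the genes was measured across the 6 profiles, with a median r of 0.33 over the pairs. Of 45 pairs, Atf6 and Eif2ak3 were most alike (Pearson r = 0.96, exact permutation p = 0.00972; Spearman rho = 0.89, exact p = 0.0333), and r was 0.87 without the 2 profiles farthest from the median of Atf6. For Xbp1 and Ddit3 r was 0.87 (exact permutation p = 0.0167; rho = 0.89, exact p = 0.0333) and was 0.60 without 2 profiles. For Atf4 and Asns r was 0.86 (exact permutation p = 0.0236; rho = 0.94, exact p = 0.0167) and 0.92 without 2 profiles. No pair passed adjustment over the 45, where the lowest Benjamini-Hochberg values of the exact permutation tests were 0.354 for r and 0.438 for rho. Atf4 and Atf6 had the lowest r, −0.53 (exact permutation p = 0.281).

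Other genes of the pathway were followed in 5 lists, none of which had a called member in any of the 6 tests (limma, adjusted p under 0.05). The lists include most of the 10 genes. The list of sensors and the proteases that release ATF6 had 8 tested genes of 10, with Xbp1 and Atf6b, a paralog of Atf6, highest. Atf6b was 21.88 FPKM in KO MPTP 2 and 22.22 in WT MPTP 1, against 20.79 and 21.49 in KO PBS 1 and 2 and 21.78 and 22.97 in WT PBS 1 and 2. All 8 lay between −0.095 and 0.052 for MPTP in WT, with a median of −0.01. For MPTP in KO they lay between −0.017 and 0.239, 7 of the 8 above 0, with a median of 0.08. Among the eIF2 kinases, phosphatase subunits and eIF2B, all 15 genes were tested, and Ppp1ca, a catalytic subunit of protein phosphatase 1, and Eif2s3x, a subunit of eIF2, were highest at 196 and 131 FPKM.

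Ppp1r15a, named here after its values were seen, encodes GADD34, the subunit that directs the phosphatase to eIF2alpha. It was 12.46 FPKM in KO MPTP 2 and 12.83 in WT MPTP 1, against 12.60 and 12.36 in KO PBS 1 and 2 and 16.54 and 16.21 in WT PBS 1 and 2. The WT PBS pair stood above the other 4 profiles, which lay together. The log2 fold change was −0.33 ± 0.08 for MPTP in WT (SE; limma, adjusted p = 0.606) and −0.35 ± 0.08 for KO under PBS (adjusted p = 0.386), and these share the WT PBS profiles.

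Of the ER chaperones and folding enzymes, all 22 were tested and none was called in either direction (limma). Hspa5 was 209 FPKM in KO MPTP 2 and 213 in WT MPTP 1, against 185 and 225 in KO PBS 1 and 2 and 171 and 209 in WT PBS 1 and 2. As for Atf4 and Sdf2l1, KO PBS 1 and WT PBS 1 were low for Hspa5, and KO PBS 2, of unknown treatment, and WT PBS 2 were higher. Calr, which encodes the lectin chaperone calreticulin, and P4hb, which encodes a protein disulfide isomerase, were highest at 436 and 265 FPKM on average. For MPTP in WT 21 of the 22 were above 0 with a median of 0.11, beside 73.0% of all tested genes and 0.04, and for MPTP in KO 21 of the 22 with a median of 0.14, beside 86.5% and 0.09. For KO against WT over 6 profiles 10 of the 22 were above 0, and their median was 0.00.

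The same low profiles recurred among these genes. WT PBS 1 and KO PBS 1 were the 2 lowest of the 6 profiles for Atf4, Xbp1, Herpud1, Sdf2l1 and Asns, and for 15 of the 22 chaperones (68.2%), 9 of 17 genes of ER-associated degradation (52.9%) and 8 of 21 targets of ATF4 and CHOP (38.1%), beside 21.0% of all tested genes. In the other 2 lists they were the lowest for 2 of 8 sensors and 3 of 15 eIF2 genes. This pattern was picked after the values were seen, and it is given without a test.

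**Figure D3:**
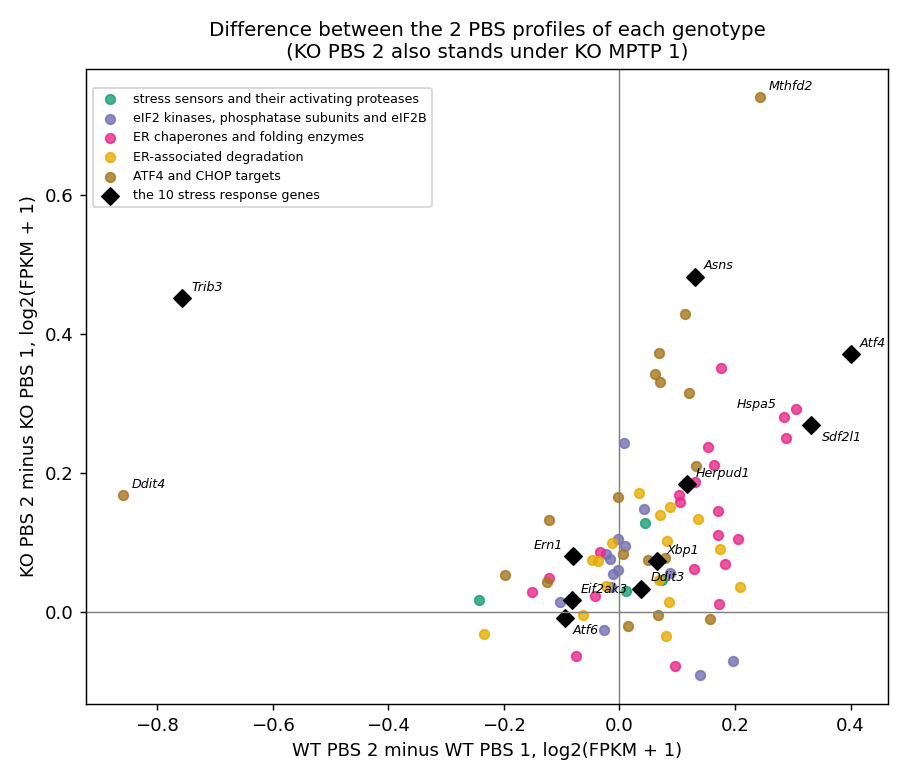
Difference between the 2 profiles labelled PBS of each genotype, of which KO PBS 2 is of unknown treatment, on the log2(FPKM + 1) scale, WT on the horizontal and KO on the vertical axis, for the 10 genes (black) and the genes of 5 pathway lists (colours). Hspa5, Sdf2l1 and Atf4 lie at the upper right, Mthfd2 at the top, and Trib3 and Ddit4 at the left.

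ER-associated degradation was represented by 17 tested genes of 18, and none was called (limma). Edem2, which encodes a lectin-like protein that marks glycoproteins for degradation, and Vcp, which encodes the ATPase that pulls proteins from the membrane, were highest at 89.0 and 81.5 FPKM. Vcp was 83.0 FPKM in KO MPTP 2 and 86.2 in WT MPTP 1, against 76.0 and 83.8 in KO PBS 1 and 2 and 77.9 and 81.8 in WT PBS 1 and 2. KO MPTP 2 lay between KO PBS 1 and KO PBS 2, and WT MPTP 1 above all other profiles.

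The list of ATF4 and CHOP targets had 21 tested genes of 26, and none was called (limma). Phgdh, the first enzyme of serine synthesis, was highest at 156 FPKM, followed by Slc3a2, the heavy chain of amino acid transporters, at 80.4. Slc3a2 was 81.0 FPKM in KO MPTP 2 and 82.3 in WT MPTP 1, against 75.9 and 80.5 in KO PBS 1 and 2 and 81.0 and 81.4 in WT PBS 1 and 2, so its genotypes were separated by a small margin. Slc3a2 and Ppp1r15a were the only genes of the 5 lists with every KO profile below every WT profile, and no gene of the lists had every KO profile above, beside the 7.23% and 0.828% of all tested genes given before. KO PBS 2 was the highest profile for Asns, Psat1, Phgdh, Psph, Shmt2, Mthfd2, Slc7a5, Slc7a1 and Aldh18a1, 9 of the 21 (42.9%), beside 8.58% of all tested genes. The count was made after the values were seen, and other list members with like roles were highest elsewhere: Pycr1, of proline synthesis, in WT PBS 2, and the transporter genes Slc3a2 and Slc7a11 in WT MPTP 1.

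Mthfd2, a mitochondrial enzyme of one-carbon metabolism, was 8.21 FPKM in KO MPTP 2 and 8.04 in WT MPTP 1, against 6.68 and 11.84 in KO PBS 1 and 2 and 6.18 and 7.50 in WT PBS 1 and 2. KO PBS 2, whose treatment is unknown, stood apart from the other 5 profiles. Ddit4, an inhibitor of the growth kinase mTORC1, was 17.46 FPKM in KO MPTP 2 and 18.65 in WT MPTP 1, against 17.89 and 20.22 in KO PBS 1 and 2 and 39.12 and 21.11 in WT PBS 1 and 2. Like Trib3, it was high in WT PBS 1 alone. Both genes were named after their values were seen.

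**Figure D4:**
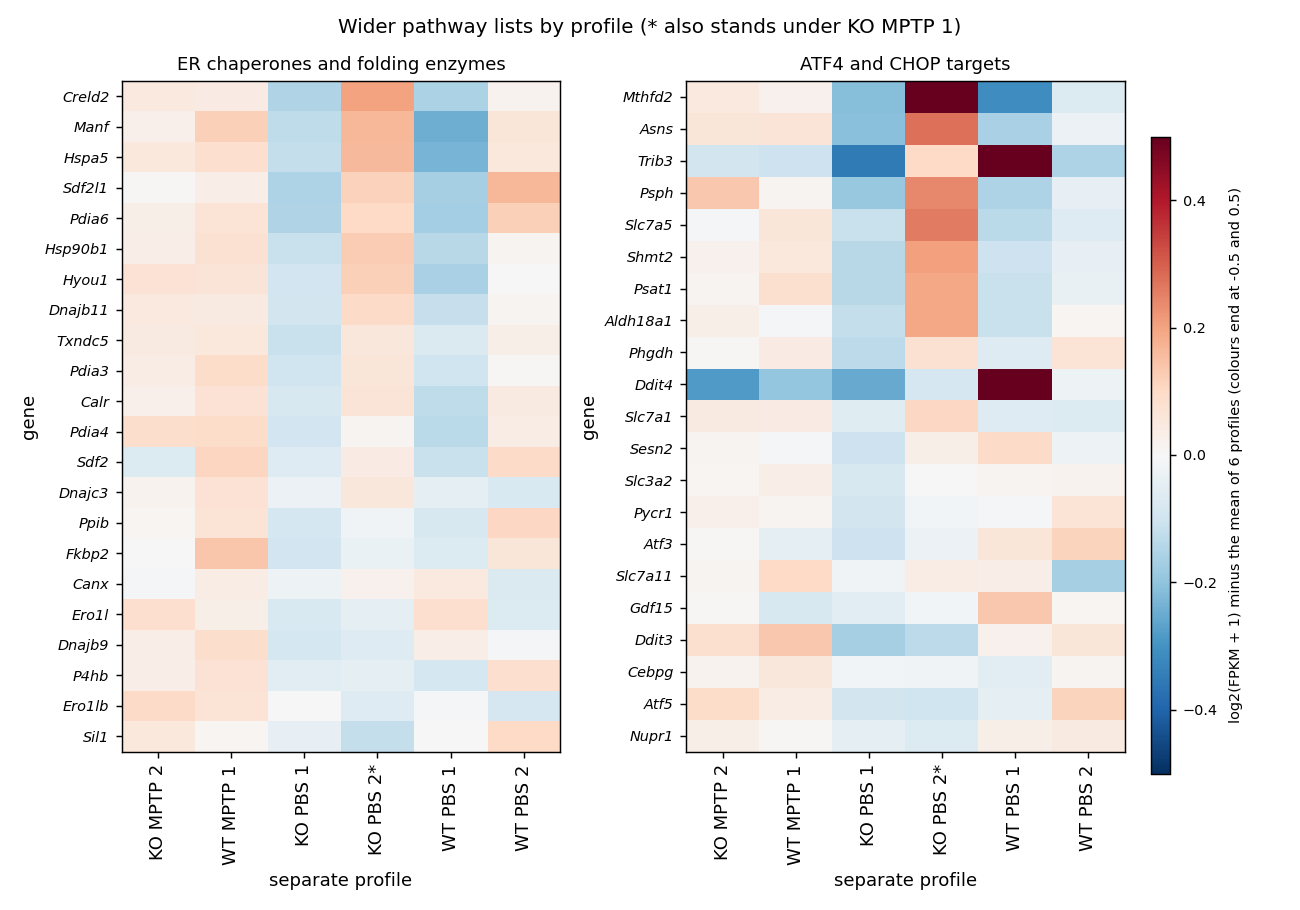
Level of each tested chaperone and folding gene (left) and each tested ATF4 and CHOP target (right) in the 6 profiles, as log2(FPKM + 1) minus the gene's mean over the profiles, with genes ordered by KO PBS 2 minus KO PBS 1. KO PBS 1 and WT PBS 1 are low for most chaperones, and KO PBS 2 is the highest profile for 9 of the 21 targets.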

How the data were processed

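Microglial RNA-seq was deposited by the authors as 1 table of 67355 rows and 12 columns, whose values were taken as FPKM because Cufflinks is named. Per the submitters' processing notes, the build was mm9 and the tools were Cufflinks, TopHat, Bowtie 0.12.7 and CASAVA 1.5, with no order given. The sources used here name no annotation, filter or strand setting, and depth is unknown, so no counting error is given. Sequences come from GRCm38, and no coordinate was carried between builds. Rows were summed per symbol (1 row with a text cell was left out). The 6 computed columns were found by checking fixed relations within 0.0101 or 0.00995 FPKM.

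limma 3.58.1 in R 4.3.3 with a mean-variance trend was fitted on log2(FPKM + 1) across all genes that reached 1 FPKM in 3 or more separate profiles, with Benjamini-Hochberg adjustment over all 10634 and a threshold of 0.05. Fold changes on this scale understate the change of low genes. The main fit used 5 profiles without the one under 2 labels and had 1 residual and 9.01 prior degrees of freedom, so groups with 1 profile borrow their spread from WT PBS. KO against WT over 6 profiles had 4 residual degrees of freedom. The procedure was tested on simulated data. All 10 genes and, per list, called genes or else the 2 highest were named, besides Hspa5. Although the rule that names the 10 genes uses no measured value, the genes and lists were chosen with earlier results of these data known.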

Additional observations from a re-analysis of the deposited data

How the results depend on the processing

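The count of called genes among the 10 was 0 in all 6 tests (limma) with pseudocounts of 0.1 and 0.5, without the filter and with median centring. It was also 0 in the 5 tests of the 5-profile fit when KO PBS 2 was added as KO PBS, or KO MPTP 1 as KO MPTP. Leaving out WT PBS 1 or WT PBS 2, with KO PBS 2 added, and leaving out each of the 6 profiles from KO against WT gave 0 as well. The exception was the 12 deposited columns taken as libraries: 2 were called for MPTP in WT (Atf4 and Herpud1), 2 for KO under PBS (Atf6 and Ddit3), 1 for KO under MPTP (Ddit3) and 2 for KO against WT (Atf6 and Ddit3), where computed columns enter as replicates. For MPTP in KO and the interaction these gave 0. Of 580 alternative fold changes, 52 had the other sign, none of them called: 8 of 60 under median centring, 9 of 60 with the 12 columns, 0 of 60 each with either pseudocount or no filter, and the rest where a profile was added, left out or blocked. With the replicate block, 0 were called for KO under PBS and 0 for KO against WT. Replicate numbers are not said to mark a batch, and the 2 minus 1 differences of the WT PBS and KO PBS pairs had r = 0.227 across genes. The replicate block moved all calls for KO against WT to 71 genes, against 4 without it, and median centring moved them to 1. Over all genes, no test called any without the filter, the 12 columns called up to 2149 (MPTP in WT), and leaving out 1 profile moved KO against WT to between 1 and 50. Without WT PBS 1 and with KO PBS 2 added as KO PBS, MPTP in WT called 8 genes, against 27 with KO PBS 2 added and both WT PBS profiles kept. No paired analysis was possible because fewer than 2 numbers are shared by separate profiles in the MPTP comparisons. With 1 or 2 profiles a group, differences anywhere within the intervals given were not excluded.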
